A study of Arabidopsis thaliana with 12 samples.

Results

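LHCB4.1 and LHCB4.2 are nuclear genes of Arabidopsis thaliana that encode isoforms of CP29, a chlorophyll-binding protein of the photosystem II antenna. They were followed here by name through 1 probe set each (loci AT5G01530 for LHCB4.1 and AT3G08940 for LHCB4.2), 2 of the 22746 probe sets tested. The genes were chosen by name and not by a threshold on measured values, though with earlier results of these data known. Both isoforms are compared below by genotype and by glucose. Across all 4 groups LHCB4.2 was higher in seedlings silenced for tor than in wild type, while LHCB4.1 stayed within a narrow range, and neither isoform passed a test for a response to glucose.

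CP29 belongs to the minor antenna, the proteins that sit as single units between the photosystem II core and the outer trimers of light-harvesting complex II. It passes excitation energy to the core and takes part in the dissipation of excess light. Its messages are made in the nucleus, translated in the cytosol and imported into the chloroplast as precursors. TOR is a protein kinase that couples nutrient supply, glucose included, to growth, and sugars are known to repress many photosynthesis genes in plants.

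The study asked which early responses of seedlings to glucose depend on TOR. RNA came from whole seedlings of Col-0 aged 3 days, kept in liquid medium under 75 uE of light for 12 h a day, a low light that lets them use up the reserves of the seed. The 4 groups, of 3 arrays each, were wild type without glucose, wild type given 15 mM glucose for 2 h, and the same treatments of a line with an estradiol-inducible RNAi construct against tor, called tor here. The labels do not say if wild type received estradiol too, so the inducer and the silencing cannot be told apart in a comparison of genotypes. The level of TOR itself was not analysed here. The RNA is of all tissues together, so fewer green cells and less message per green cell cannot be told apart. Values are log2 RMA signals, in which a step of 1 is a doubling, with 3 arrays limiting the precision of each group. The median array value lay between 6.53 and 6.68 on the wild-type arrays and between 6.76 and 6.86 on the tor arrays. If the genotypes were normalized jointly or apart is not stated in the labels.

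LHCB4.1 was among the brightest signals on every array and hardly moved. In wild type without glucose its log2 level was 13.82, 13.87 and 13.72 on arrays 1, 2 and 3 (mean 13.80 ± 0.08, SD, n = 3). In wild type with glucose it was 13.77, 13.74 and 13.68 (13.73 ± 0.05, SD, n = 3). In tor it was 13.65, 13.65 and 13.51 without glucose (13.60 ± 0.08, SD, n = 3), and 13.73, 13.67 and 13.58 with it (13.66 ± 0.07, SD, n = 3). The 3 tor arrays without glucose, at 13.65 or less, lay below all 6 wild-type arrays, which began at 13.68, while tor with glucose overlapped each of the other groups. The order of the means ran from wild type without glucose through wild type with glucose and tor with glucose to tor without glucose. Neighbouring means in this order differed by 0.06 to 0.07, about the size of the pooled SD within groups, and none of these 3 steps passed the test. Among the 22746 probe sets LHCB4.1 ranked 14 to 22 from the top on wild-type arrays and 22 to 33 on tor arrays. Whether a signal this bright still follows the amount of RNA was not tested. Its pooled SD within groups was 0.070 on the log2 scale, and 98.1% of all probe sets had a larger one, with a median of 0.21.

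LHCB4.2 was higher on each of the 6 tor arrays than on any of the 6 wild-type arrays. Its log2 level was 12.28, 13.03 and 12.34 on the wild-type arrays without glucose (12.55 ± 0.42, SD, n = 3). With glucose, wild type gave 12.41, 12.90 and 12.15 (12.49 ± 0.38, SD, n = 3). In tor it was 13.19, 13.37 and 13.19 without glucose (13.25 ± 0.10, SD, n = 3), and 13.21, 13.39 and 13.25 with it (13.28 ± 0.10, SD, n = 3). Within each genotype the treatments overlapped and their order was not distinguishable. The number 2 array was the highest in all 4 groups, by most in wild type. Of all probe sets, 15.9% had every tor array above every wild-type array and 6.25% every one below. LHCB4.2 ranked 103 to 289 in wild type and 36 to 66 in tor. Its pooled SD within groups was 0.29, and 28.4% of probe sets had a larger one.

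**Figure D1:**
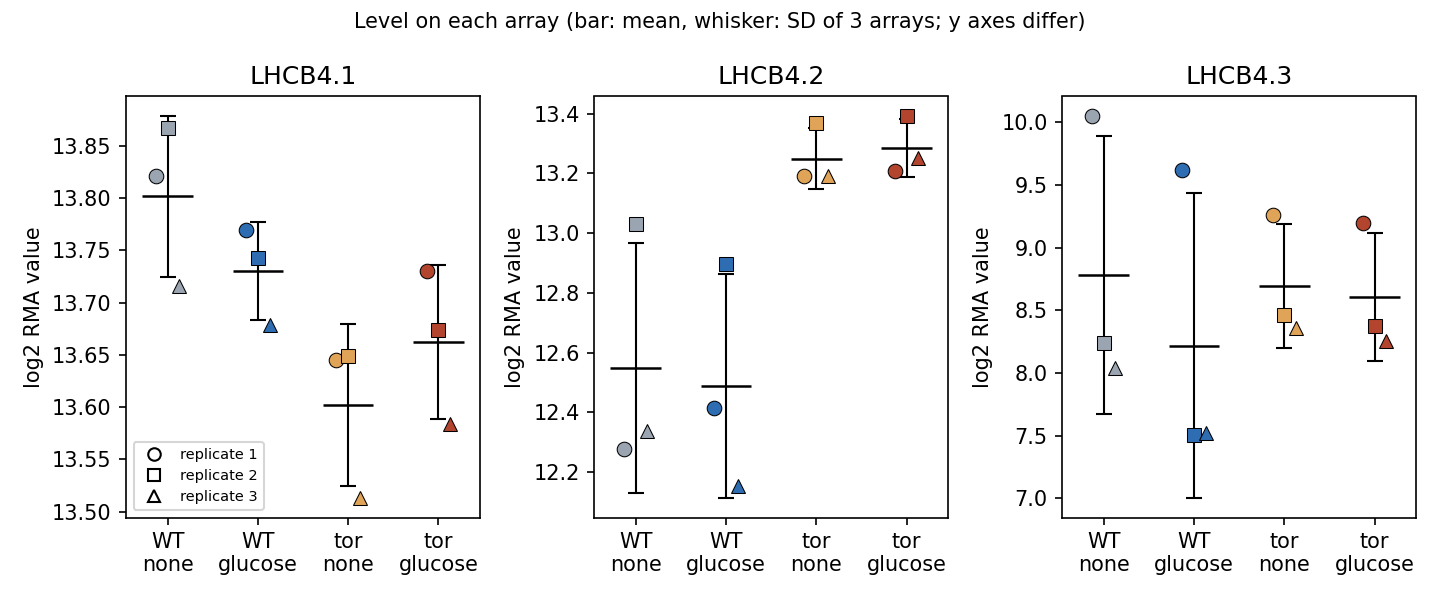
Log2 RMA level (y axes, which differ between panels) of LHCB4.1, LHCB4.2 and LHCB4.3 on each of the 12 arrays by group (x axis), with a bar for the mean and a whisker for the SD of 3 arrays. The 6 tor points of LHCB4.2 lie from 13.19 to 13.39, above the 6 wild-type points from 12.15 to 13.03, while the LHCB4.1 points all lie between 13.51 and 13.87.

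Silencing of tor went with a higher LHCB4.2 message. Without glucose the log2 difference between tor and wild type was 0.70 ± 0.22 (SE), a 1.63-fold higher level (limma, Benjamini-Hochberg adjusted p = 0.0356, 95% confidence interval 0.22 to 1.18 log2). With glucose it was 0.80 ± 0.22 log2, or 1.74-fold (adjusted p = 0.0143, 0.31 to 1.28). Averaged over both treatments it was 0.75 ± 0.15 log2, or 1.68-fold (adjusted p = 0.00245, 0.41 to 1.09). That average takes the arrays of both treatments as independent. Yet LHCB4.2 deviated alike from its group means on same-number arrays without and with glucose. In wild type the deviations were -0.27 and -0.07, 0.48 and 0.41, and -0.21 and -0.33. In tor they were -0.06 and -0.08, 0.12 and 0.11, and -0.06 and -0.03. The SE and adjusted p of the average may thus be too small. Arrays of the same replicate number differed by 0.91, 0.34 and 0.85 log2 without glucose and by 0.80, 0.50 and 1.1 with it. All 6 of these differences were positive, and the number 2 arrays gave the smallest in each treatment. The groups did not overlap in either treatment, as was true in this direction of 27.1% of probe sets without glucose and 32.8% with it.

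These differences stood in a comparison in which many probe sets moved. At an adjusted p under 0.05, 28.2% of probe sets were called between the genotypes without glucose, 41.4% with glucose and 49.1% on the average. Of the 2 isoforms 1 was called in each of these comparisons, always higher in tor, where 19.5%, 25.4% and 30.8% of all probe sets were called higher. On the average, 12.7% of probe sets had a higher change than LHCB4.2. The median change of all probe sets was 0.07 log2 on the average, so LHCB4.2 stood 0.68 above it. With each array centred on its own median the LHCB4.2 difference was 0.46 without glucose, where it was no longer called (adjusted p = 0.114), 0.62 with glucose (adjusted p = 0.0356) and 0.54 on the average (adjusted p = 0.0105). The call without glucose was also lost with only the 6 arrays compared in the fit (adjusted p = 0.0669), and when any one of 5 arrays was left out (wild type 1 or 3, tor 1, 2 or 3, with adjusted p up to 0.115). With glucose it was lost without wild type 3 or tor 2 (adjusted p up to 0.0582).

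LHCB4.1 did not pass the test between the genotypes, and its differences had the opposite sign. Without glucose the log2 difference between tor and wild type was -0.20 ± 0.09 (SE, limma adjusted p = 0.125). The same-number differences were -0.18, -0.22 and -0.20, and the arrays did not overlap, as was true in this direction of 14.4% of all probe sets. With glucose the difference was -0.07 ± 0.09 (adjusted p = 0.586), with same-number differences of -0.04, -0.07 and -0.09, and the groups overlapped. On the average it was -0.13 ± 0.06 (adjusted p = 0.107, 95% confidence interval -0.27 to 0.01). After centring each array on its median the values were -0.44, -0.24 and -0.34 and all 3 were called (adjusted p = 0.00466, 0.0477 and 0.0011). Quantile normalization of the deposited values gave -0.12 on the average (adjusted p = 0.122). The sign of the LHCB4.1 difference was negative under each of these scalings, and only the centring brought it past the threshold. Under every alternative run, these scalings included, LHCB4.2 was higher in tor, at 0.54 to 0.91 log2 on the average.

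Neither isoform was called for a response to 15 mM glucose at 2 h. In wild type 24% of all probe sets were called, and 0 of the 2 isoforms. LHCB4.1 changed there by -0.07 ± 0.09 log2 (SE, limma adjusted p = 0.666, 95% confidence interval -0.27 to 0.13), with same-number differences of -0.05, -0.12 and -0.04. LHCB4.2 changed by -0.06 ± 0.22 (adjusted p = 0.898, -0.54 to 0.42), with same-number differences of 0.13, -0.14 and -0.18. Its interval leaves room for a larger change than that of LHCB4.1. In tor 0% of probe sets were called by limma, and 313 had an unadjusted p under 0.05. LHCB4.1 changed by 0.06 ± 0.09 there, with same-number differences of 0.08, 0.02 and 0.07. LHCB4.2 changed by 0.04 ± 0.22 (95% confidence interval -0.45 to 0.52), with same-number differences of 0.02, 0.03 and 0.06. The signs for LHCB4.1 were thus negative in 3 of 3 wild-type pairs and positive in 3 of 3 tor pairs, at sizes of 0.12 or less.

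The difference of the glucose responses, tor minus wild type, was 0.13 ± 0.13 log2 for LHCB4.1 (SE, adjusted p = 0.683, 95% confidence interval -0.15 to 0.41) and 0.10 ± 0.31 for LHCB4.2 (adjusted p = 0.933, -0.59 to 0.78). In this comparison 5.36% of all probe sets were called. Averaged over the genotypes, where 15.1% of probe sets were called, glucose moved LHCB4.1 by -0.01 ± 0.06 and LHCB4.2 by -0.01 ± 0.15. The authors' deposited table for wild type gives log2 fold changes of 0 for LHCB4.1 and -0.1 for LHCB4.2 by dChip, with p-values of 0.634 and 0.716. By RMA the authors' deposited table for wild type gives -0.1 for each, with p-values of 0.482 and 0.760. The authors' deposited table for tor gives 0.1 for LHCB4.1 by both methods and 0 for LHCB4.2 by both.

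**Figure D2:**
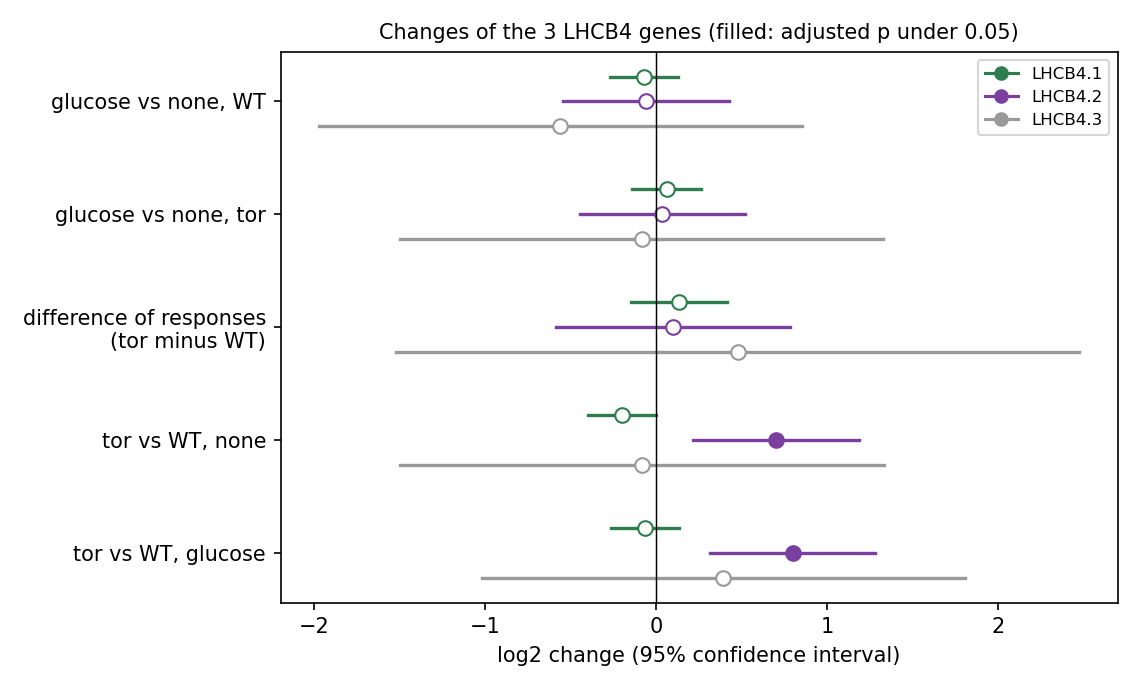
Log2 change (x axis, with 95% confidence interval) of LHCB4.1, LHCB4.2 and LHCB4.3 in 5 comparisons (y axis), with a filled point where the adjusted p was under 0.05. The filled points are those of LHCB4.2 between tor and wild type, at 0.70 without and 0.80 with glucose, and every interval for a glucose response spans 0.

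The isoforms were then set against each other on the same array, which removes a factor that scales both signals alike. An effect that depends on brightness would remain, and was not tested. The log2 difference LHCB4.1 minus LHCB4.2 also holds the brightness of each probe set, so only its change between groups is read. It was 1.25 ± 0.37 in wild type without glucose (SD, n = 3, range 0.84 to 1.54) and 1.24 ± 0.35 in wild type with glucose (0.85 to 1.52). In tor it was 0.35 ± 0.09 without glucose (0.28 to 0.45) and 0.38 ± 0.13 with it (0.28 to 0.52). Each tor array lay below each wild-type array.

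The ratio of LHCB4.1 to LHCB4.2 was thus lower in tor. Averaged over both treatments the within-array difference was lower by 0.88 ± 0.15 log2 (SE), a ratio of 0.543 times that of wild type. A two-sided exact permutation test of genotype within treatment gave p = 0.005, the smallest that 400 arrangements can give, and 0.035 after Benjamini-Hochberg adjustment over 7 comparisons of this measure. Within a treatment the difference was -0.90 ± 0.22 without glucose and -0.86 ± 0.22 with it (exact permutation p = 0.1 each, the smallest that 3 against 3 arrays can give, adjusted p = 0.233). With arrays paired by number, a sign-flip test of the averaged value gave an exact p of 0.03125, the smallest it allows, which adjusts to 0.219 and is not called. Both tests of the average take the treatments as independent. Same-number arrays without and with glucose gave close values, 1.54 and 1.36, 0.84 and 0.85, and 1.38 and 1.52 in wild type. In tor they gave 0.45 and 0.52, 0.28 and 0.28, and 0.32 and 0.33. These exact p-values may thus be too small. For glucose the within-array difference changed by -0.01 in wild type (exact permutation p = 0.8) and 0.02 in tor (exact permutation p = 0.7). These isoforms are close in sequence, and how far each probe set also binds the message of the other was not tested.

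**Figure D3:**
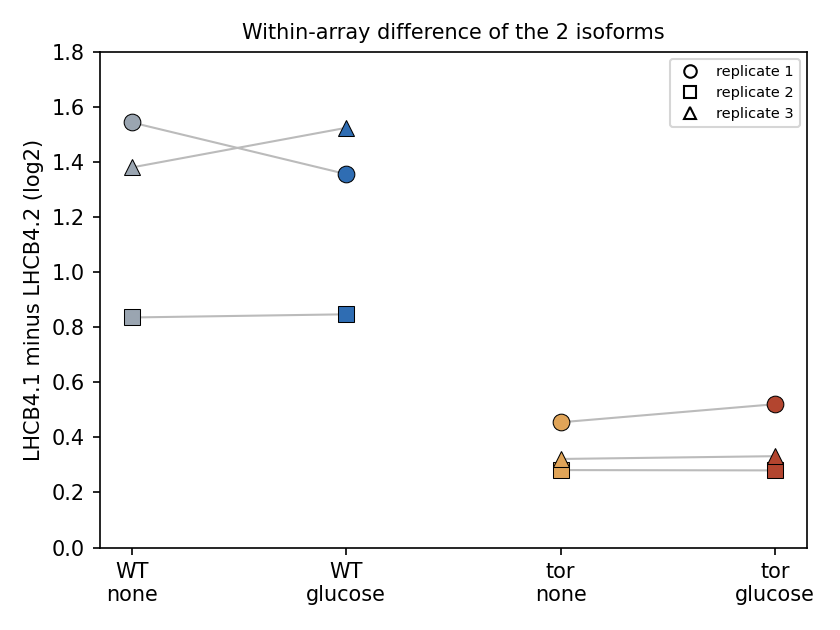
Within-array difference LHCB4.1 minus LHCB4.2 (y axis, log2) on each of the 12 arrays by group (x axis), with the arrays marked by replicate number. The 6 tor arrays lie between 0.28 and 0.52 and the 6 wild-type arrays between 0.84 and 1.54.

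LHCB4.3 (AT2G40100), the third isoform gene of the family, varied far more between arrays of 1 group than the other 2, with SDs of 0.49 to 1.22 log2. Its probe set gave 10.05, 8.24 and 8.04 in wild type without glucose and 9.62, 7.50 and 7.52 with it. In tor it gave 9.26, 8.46 and 8.36 without glucose and 9.20, 8.37 and 8.26 with it. Here the number 1 array was the highest in all 4 groups, where for LHCB4.2 it was number 2. The genotype difference was 0.15 ± 0.45 log2 on the average (SE, limma adjusted p = 0.801), and the number 1 pairs had the opposite sign to the others, at -0.79 against 0.22 and 0.32 without glucose.

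For glucose, the same-number differences of LHCB4.3 were all negative, at -0.43, -0.74 and -0.52 in wild type and -0.07, -0.09 and -0.10 in tor. The fit without a replicate block did not call the wild-type change of -0.56 ± 0.64 (SE, adjusted p = 0.624). With the number as a common block the adjusted p was 0.138. With the number blocked within each genotype the same change had an SE of 0.09 and was called (adjusted p = 0.00191), as was the difference of the responses, 0.48 ± 0.13 (adjusted p = 0.0393). That fit called 39.1% and 20% of all probe sets in these comparisons, against 24% and 5.36% without a block. The call on LHCB4.3 thus rests on how the replicate number enters the fit.

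LHCB4.2 was the 1 higher call among the measured photosynthesis genes, and the 8 other calls were lower. Of 117 genes on 8 lists of the photosynthetic apparatus, chlorophyll synthesis, carbon fixation and their regulators, 20 have a named probe set here, the 3 LHCB4 genes among them. On the average over treatments 1 of the 20 was higher in tor (LHCB4.2), 8 were lower and 11 did not pass. Their median change was -0.18 log2, against 0.07 for all probe sets. Of all probe sets 30.8% were called higher and 18.2% lower in this comparison. Without glucose 1 gene was higher (LHCB4.2) and 5 were lower, with 19.5% of all probe sets called higher and 8.66% lower. With glucose 1 was higher (LHCB4.2) and 4 were lower, with 25.4% of all probe sets called higher and 16% lower. With the replicate number as a block the lower counts were 9 without glucose and 8 with it, and with centred arrays 11 and 10. The block called 39.9% of all probe sets without glucose (65.6% of those higher) and 50.8% with it (59.9% higher). Centring called 31.2% of all probe sets without glucose (33% of those higher) and 40.2% with it (41.9% higher). The 1 higher call without glucose was lost with centred arrays, with the compared arrays alone and without any one of the 5 arrays named for LHCB4.2 above. Of the antenna list only the LHCB4 genes, 3 of 22, have a named probe set here, so whether other antenna genes followed LHCB4.2 was not analysed here.

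Among the measured genes of the photosystems themselves the differences were small. Of the lists, 2 of 10 photosystem II genes and 2 of 12 photosystem I genes have a named probe set here. Whether signals as bright as theirs still follow the amount of RNA was not tested. PSAN, a lumenal subunit of photosystem I, was lower in tor by 0.24 ± 0.08 log2 (SE, limma adjusted p = 0.0221), a call lost without wild type with glucose 2 or tor without glucose 3 (adjusted p = 0.0557 and 0.0506) and after quantile normalization (0.161). The small photosystem II subunits PSBW and PSBY differed by 0.19 ± 0.08 (adjusted p = 0.0727) and -0.12 ± 0.11 (adjusted p = 0.423), and PSAE1, a stromal subunit of photosystem I, by 0.04 ± 0.08 (adjusted p = 0.672). ATPC1, the gamma subunit of the chloroplast ATP synthase, differed by -0.16 ± 0.08 (adjusted p = 0.141). None of these 4 passed, and PSBW was the one other gene to be called higher once the replicate number was blocked (adjusted p = 0.0347). That block called 57.4% of all probe sets on the average, 61.3% of them higher.

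The chlorophyll pathway held most of the lower calls, 5 of its 8 measured genes. CHLI2, a subunit of the magnesium chelatase that opens the chlorophyll branch, differed by -1.15 ± 0.16 log2 (SE, adjusted p = 0.00024). CHLM, the methyltransferase that follows the chelatase, differed by -0.79 ± 0.10 on the average (adjusted p = 0.000109). Its means were 11.94 in wild type and 10.72 in tor without glucose, and 11.19 and 10.84 with it. Only its difference without glucose was called. HEME2, HEME1 and HEMB1, which act earlier in tetrapyrrole synthesis, differed by -1.20 ± 0.29, -0.82 ± 0.19 and -0.85 ± 0.16 (adjusted p = 0.00552, 0.00476 and 0.00156). HEME2 was not called without glucose, nor HEME1 with it. The number 1 tor array was the highest for all 3 in both treatments, for HEME2 at 9.99 against 8.66 and 8.62 without glucose. The SE of these averages may thus be too small. GSA1, PORB and CHLP did not pass, at -0.50, 0.07 and -0.16.

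In the Calvin cycle, RCA and SBPASE were lower on the average and PRK did not pass. RCA, the activase of Rubisco, lay at 13.96 to 14.06 on the wild-type arrays and 13.36 to 13.59 on the tor arrays, with no overlap. Its difference was -0.51 ± 0.06 log2 (SE, adjusted p = 0.000119). SBPASE, a phosphatase of the regenerative phase, differed by -0.98 ± 0.27 (adjusted p = 0.0126) and PRK by -0.19 ± 0.13 (adjusted p = 0.249). SBPASE was not called in either treatment alone. In tor it gave 12.01, 10.94 and 10.72 without glucose and 12.03, 10.88 and 10.80 with it. The number 1 values lay within its wild-type range, 11.76 to 12.60. HYH, a light-signalling transcription factor, differed by 0.01 ± 0.53 (adjusted p = 0.992). Without the 4 arrays numbered 2 the LHCB4.2 difference was 0.91 log2 (adjusted p = 0.00348). Those arrays gave its smallest same-number differences, so leaving them out could only raise this value. The lower calls came down from 8 to 3 (CHLI2, CHLM and RCA) without them. The calls over all probe sets came down as well, from 49.1% to 24.9%, of which 62.8% and 66.4% were higher.

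**Figure D4:**
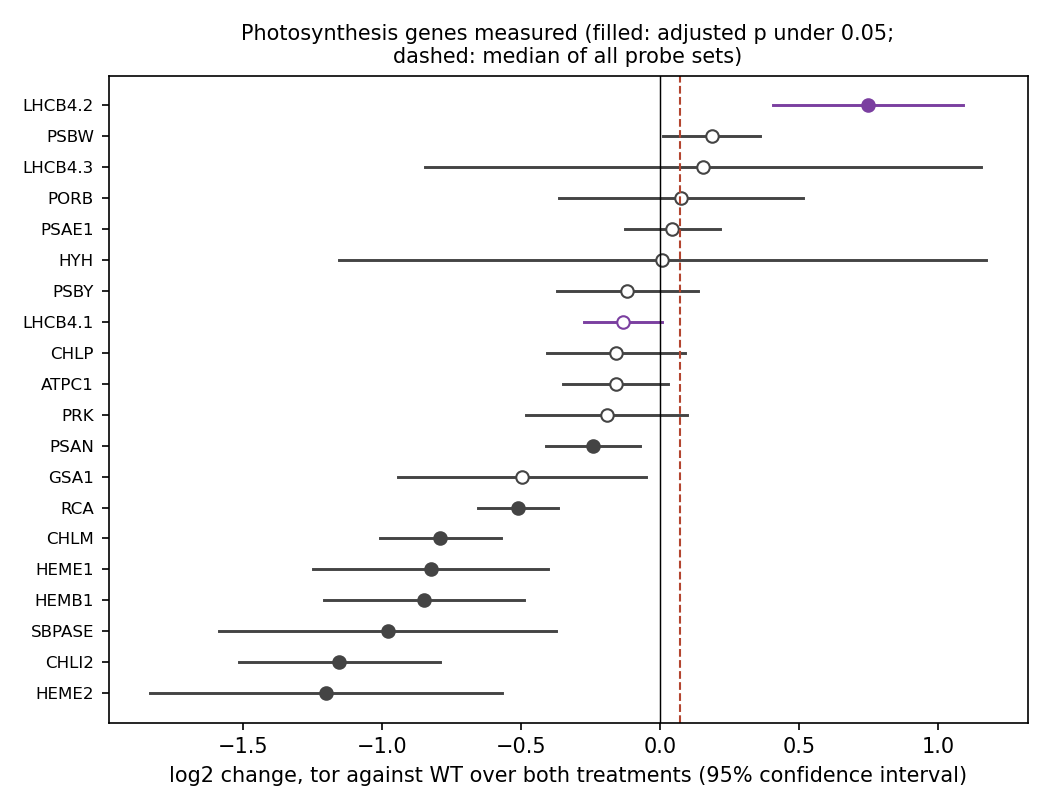
Log2 change between tor and wild type averaged over both treatments (x axis, with 95% confidence interval) for the 20 measured photosynthesis genes (y axis), filled where the adjusted p was under 0.05, with a dashed line at the median of all probe sets, 0.07. LHCB4.2 is the filled point to the right at 0.75 and 8 filled points lie to the left, from -0.24 to -1.20.

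Under glucose in wild type 18 of the 20 genes did not pass, the 3 LHCB4 genes included, 1 was higher and 1 lower, where 13.5% and 10.5% of all probe sets were called. PORB, which reduces protochlorophyllide in the light, rose by 1.07 ± 0.28 log2 (SE, limma adjusted p = 0.0187), from 10.89, 11.26 and 10.36 to 11.84, 12.38 and 11.49. That call was lost without wild type 3 without glucose or wild type 2 with glucose (adjusted p = 0.0753 each). CHLM fell by 0.74 ± 0.14 (adjusted p = 0.00321), from 11.90, 11.91 and 12.01 to 11.40, 11.16 and 11.02. In tor 0 of the 20 were called, and the CHLM levels were 10.99, 10.63 and 10.52 without and 10.89, 10.90 and 10.73 with glucose. The response of CHLM differed between the genotypes by 0.87 ± 0.20 (adjusted p = 0.0319), a call that was lost when any one of 9 arrays was left out, all but array 1 of 3 groups, wild type without and with glucose and tor without (adjusted p up to 0.0832). Without the 4 arrays numbered 2, 0 of the 20 were called for glucose in wild type, where 3.46% of all probe sets were called, against 24% with all arrays.

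Of the other cell types, 1 root-hair marker differed between the genotypes on the same arrays. Of 15 marker genes for other cell types, 3 have a named probe set here. The root-hair expansin EXPA7 lay between 6.44 and 7.54 on wild-type arrays and between 4.73 and 4.97 on tor arrays, a difference of -2.11 ± 0.19 log2 (SE, limma adjusted p = 1.16e-05). All 6 tor values of EXPA7 lay under the log2 level of 5 taken as dim here, so the size of that difference may be only a lower bound. EXPA18, also of root hairs, lay between 4.65 and 6.08 in wild type and between 5.18 and 5.49 in tor, and differed by -0.19 ± 0.18 on the average (adjusted p = 0.412). Without glucose EXPA18 differed by 0.33 log2, the opposite sign to EXPA7 (adjusted p = 0.368). With glucose it was lower in tor by 0.71 log2 (adjusted p = 0.0458), and in wild type it rose with glucose by 0.85 (adjusted p = 0.033). These calls were lost when any one of 9 and of 5 arrays was left out, all 3 of wild type with glucose among each (adjusted p up to 0.114 and 0.127). FAMA, a guard-cell factor, differed by 0.03 ± 0.13 (adjusted p = 0.858). The part of such cells in the LHCB4.2 difference was not tested.

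Over the 12 arrays the isoforms followed different genes. The likeness of a probe set was its Pearson correlation with the member over the 12 arrays, among 8833 probe sets with 1 gene name and a mean log2 level of at least 5. For LHCB4.2 the nearest were AT3G13480 (r = 0.97), AT3G58730 (0.96), which encodes a subunit of the vacuolar proton ATPase, AT2G27140 (0.95), AT3G48185 (0.95) and the cytochrome P450 gene CYP71B35 (0.94). The farthest were AT3G45700 (-0.93), AT4G03120 (-0.92) and AT3G16660 (-0.92). For LHCB4.1 the nearest were AT3G27050 (0.94), AT3G18940 (0.93), AT5G66550 (0.93), AT5G02830 (0.92) and AT4G16980 (0.92), and the farthest AT3G24180 (-0.93), AT3G18640 (-0.91) and AT4G15020 (-0.90). The isoforms correlated with each other at -0.44, which placed LHCB4.2 at rank 6049 for LHCB4.1 and LHCB4.1 at rank 6812 for LHCB4.2. The 12 arrays share their genotype, treatment and replicate number, so these correlations are descriptions.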

How the data were processed

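Expression was measured on 12 arrays, 3 per group, from total RNA of seedlings. The deposited log2 values were made by the authors with RMA, version not stated, per the submitters' processing notes. Per the file headers the authors also deposited, for each genotype, log2 fold changes of glucose against none by dChip and RMA with a p-value each, whose test and adjustment are not stated. The table holds 22810 probe sets. Without its 64 controls 22746 were tested, of which 13513 carry 1 gene name in the sources used here, 503 several and 8730 none, the last 2 kinds entering counts only. Names came from the platform annotation, updated through RefSeq gene tables, so a gene with no named probe set here may still be on the array. The 1 missing value, on a tor array with glucose, belongs to no gene named here.

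One linear model with a mean per group was fitted to all 12 arrays with lmFit and eBayes of limma 3.58.1 (R 4.3.3), a step tested on simulated data. It gave 7 comparisons, with two-sided p-values, Benjamini-Hochberg adjustment across the 22746 probe sets and a call at an adjusted p under 0.05. Errors are SE of the model or SD over arrays. The within-array difference of the isoforms was tested by exact permutation of arrays. The labels call the replicates biological and give each a number from 1 to 3. After removal of group means the correlation of the 18 pairs with a shared number was 0.199 to 0.863, and 12 of 12 arrays were closest to their own number, so the numbers were taken to pair the arrays, from the data and not from a statement of the labels. No block was used in the reported fit. Averages over both treatments thus take same-number arrays of a genotype as independent, so the SE and p-values of genotype averages may be too small.

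Genes named are the 2 isoforms, the measured members of the antenna list, called members of the other photosynthesis lists (up to 6 a list) and the 5 nearest and 3 farthest genes by correlation. The members that were not called, PSBW to HYH in the account of the lists, the marker genes and the arrays numbered 2 as a group were added after values were seen. The members, lists and tests were chosen with earlier results of these data known. Alternatives were a replicate block, arrays of the compared groups alone, centring, quantile normalization, a trended robust variance, array weights, a filter at a mean log2 value of 5, and leaving out arrays. No sequence was analysed here.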

Additional observations from a re-analysis of the deposited data

Results flagged for a closer look

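The glucose response of CHLM, a chlorophyll synthesis gene measured beside the LHCB4 genes, differed between tor and wild type by the test of the difference itself, 0.87 ± 0.20 log2 (SE, limma adjusted p = 0.0319). The level was lower with glucose on 3 of 3 same-numbered wild-type pairs, and on 1 of 3 tor pairs. The call was lost when any one of 9 of the 12 arrays was left out (adjusted p up to 0.0832) and after quantile normalization (0.0519).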

How the results depend on the processing

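For LHCB4.2 the higher level in tor averaged over both treatments kept its direction and its call under every alternative run, at 0.54 to 0.91 log2, and at 0.67 to 0.87 with single arrays left out. No alternative merged the same-number arrays of a genotype. With the replicate number as a block the adjusted p was 0.00407 without glucose, 0.00135 with it and 0.000183 on the average. Without glucose the difference lost its call with only the arrays compared (0.70) and with centred arrays (0.46), and ran from 0.57 to 0.94 with single arrays left out. With glucose it ran from 0.63 to 1.00. For LHCB4.1 centring brought the genotype differences past the threshold, at -0.44, -0.24 and -0.34. Centring also moved the share of higher among all called probe sets from 62.8% to 35.3% on the average, from 69.3% to 33% without glucose and from 61.3% to 41.9% with it. The array medians of tor stood 0.21 above wild type on the average.

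Values near 0 changed sign with single arrays left out, none being called. The averaged glucose response of LHCB4.1 ran from -0.0282 to 0.0139, and was 0.0163 without the 4 arrays numbered 2. For LHCB4.2 the glucose response ran from -0.26 to 0.18 in wild type, from -0.019 to 0.0942 in tor and from -0.11 to 0.11 on the average, where it was 0.0185 after quantile normalization and 0.00821 without the arrays numbered 2. Its difference of responses ran from -0.15 to 0.30. The within-array isoform difference after quantile normalization changed by -0.0404 with glucose in tor, by -0.0169 in the difference of responses and by -0.0319 on the average. Its averaged genotype change, -0.88, was not called with arrays paired by number, and ran from -0.99 to -0.81 with single arrays left out. For LHCB4.3 the genotype difference was 0.0732 without glucose under array weights and, on the average, -0.0548 after centring and -0.042 without the arrays numbered 2. With single arrays left out its glucose response ran from -1.26 to 0.0758 in wild type and from -0.38 to 0.20 in tor, the difference of responses from -0.16 to 1.18, and its genotype difference from -0.45 to 0.55 without glucose and from -0.0306 to 0.51 on the average.

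Of the 20 photosynthesis genes, the replicate block called 2 higher and 2 lower for glucose in wild type, 2 higher in the difference of responses, 9 lower between genotypes without and 8 lower with glucose, 2 higher on the average, and 2 higher and 1 lower for averaged glucose. Over all probe sets it called 33.9%, 13.4%, 39.9%, 50.8%, 57.4% and 25.8% in these comparisons, in that order. Blocked within genotype, the counts were 2 and 4 for glucose in wild type, 4 and 1 for the difference of responses, and 2 and 3 for averaged glucose. The shares of all probe sets called there were 39.1%, 20% and 31.9%. The arrays compared alone gave 2 higher for glucose in wild type and 0 higher between genotypes without glucose, with 24.1% and 20.6% of all probe sets called. Centring gave 0 higher and 11 lower without glucose, 10 lower with it, 14 lower on the average and 1 lower for averaged glucose. Over all probe sets it called 31.2%, 40.2%, 52.7% and 15.2%, of which 33%, 41.9%, 35.3% and 44.7% were higher. Quantile normalization gave 0 higher in the difference of responses, and 2 higher between genotypes with glucose and on the average. It called 4.91%, 40.5% and 49.9% of all probe sets there. The filter on dim probe sets gave 1 higher for averaged glucose, with 21.7% of the probe sets kept called. Without the arrays numbered 2 the counts were 0 and 0 for glucose in wild type, 0 for the difference of responses, and 1, 0 and 3 lower between genotypes without glucose, with glucose and on the average. Of all probe sets 3.46%, 0%, 6.28%, 14.3% and 24.9% were called in these comparisons. With single arrays left out the counts ran from 0 to 1 higher and 1 to 2 lower for glucose in wild type, 0 to 1 higher in the difference of responses, 0 to 1 higher and 3 to 7 lower without glucose, 0 to 1 higher and 3 to 8 lower with it, and 0 to 2 higher and 0 to 1 lower for averaged glucose. The shares of all probe sets ran from 16.3% to 26.2%, 2.1% to 8.04%, 18.8% to 30.1%, 31.5% to 43.1% and 10.4% to 20%.

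Over all probe sets the block raised the counts of calls to 7715 for glucose in wild type (5454 without it), 3043 for the difference of responses (1220) and 5874 for averaged glucose (3438). The block within genotype was not run for comparisons between genotypes, where it leaves no error term, and array weights were not run for the counts of the lists. The block changed no call of LHCB4.1 or LHCB4.2. The cause of these changes was not tested.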
